A study of Homo sapiens with 4 samples.

Results

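The cytosolic ribosomal protein genes were examined in 4 arrays of the established line U87, which was derived from a human glioma. Members were the probe sets that GEO's platform annotation assigns to a single gene with a symbol of the RPL, RPS or RPLP series or RPSA, with pseudogenes and the RPS6K kinases left out. This gave 114 of 41920 probe sets and 56 of 18304 genes, 35 genes of the large subunit (65 probe sets) and 21 of the small subunit (49 probe sets). Of the genes, 23 had 1 probe set and 33 had several, up to 5. Probe sets of 1 gene share their target and are not replicates. A further 15 ribosomal protein symbols, among them RPL5, RPL10, RPL13A and RPL23, occurred only on probe sets that name several genes, mostly with small nucleolar RNAs of their introns, and got no value of their own here. Such probe sets named 22 ribosomal protein symbols in all. The rest of these were member genes, whose probe sets shared with other genes were left out.

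All 4 samples were U87 cells with QK (QKI, an RNA-binding protein) knocked down. The control group, miR-NT, consisted of 2 samples that had received a scrambled microRNA without a target, and the miR-20a group of 2 samples that had received miR-20a, in both cases by transduction. The labels name neither the vector nor the method of the knockdown, nor is it stated that replicates were grown as separate cultures. The p-values therefore measure only how far these particular samples vary, and that variation may be technical. The comparison addressed how transcript levels with added miR-20a differ from those with the scrambled control, both in the absence of normal QK levels.

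Each ribosome of the cytosol is built from ribosomal RNA and a set of ribosomal proteins in a small subunit, which decodes the mRNA, and a large subunit, which joins amino acids. The proteins are made in matched amounts, and their mRNAs are among the most abundant of growing cells. Most of these mRNAs begin with a C followed by an unbroken run of pyrimidines, the terminal oligopyrimidine (TOP) motif, through which the mTORC1 kinase and the RNA-binding protein LARP1 control their translation. MicroRNAs pair with mRNAs mainly through their seed.

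The mature microRNA is shown with its seed, bases 2 to 8, in capitals. It lies at chr13:91351072-91351094 on the plus strand in GRCh38.p14 (RefSeq).
hsa-miR-20a-5p: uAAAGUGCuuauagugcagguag
The starts of 10 member genes are shown because they carry the sequence feature that most members share, or lack it. Each window holds 15 bases before the annotated first base of the transcript and the first 15 bases of the 5′ untranslated exon (RefSeq, GRCh38.p14). Capitals mark the pyrimidine run that begins with a C at the annotated start, as far as it lies in the window.
RPS27, chr1:153990747-153990776, plus strand: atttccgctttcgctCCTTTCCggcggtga
RPS3, chr11:75399503-75399532, plus strand: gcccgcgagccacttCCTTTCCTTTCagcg
RPS24, chr10:78033848-78033877, plus strand: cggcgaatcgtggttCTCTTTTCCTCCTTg
RPL39, chrX:119791616-119791645, minus strand: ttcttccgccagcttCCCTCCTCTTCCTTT
RPLP1, chr15:69452803-69452832, plus strand: gtataggcgcgagagCCCCTTTCCTCagct
RPLP2, chr11:809952-809981, plus strand: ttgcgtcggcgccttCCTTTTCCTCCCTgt
RPL27, chr17:42998404-42998433, plus strand: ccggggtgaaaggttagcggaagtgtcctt
RPL9, chr4:39458908-39458937, minus strand: gtacgtaatgacgacagacgttctttcttt
RPS27L, chr15:63157463-63157492, minus strand: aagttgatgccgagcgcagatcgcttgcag
RPL10L, chr14:46651767-46651796, minus strand: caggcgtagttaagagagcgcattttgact

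A promoter was matched by symbol for 48 of the 56 genes, with 55 annotated starts. A C at the annotated start followed by at least 4 further C or T bases was found in 34 of the 48 (70.8%), against 5.14% of 27305 genes with a promoter in the same RefSeq table. The run was 7 bases long in RPS27, 11 in RPS3 and RPLP1, 13 in RPLP2, 14 in RPS24 and 19 in RPL39. RPS27L and RPL10L, paralogs of RPS27 and RPL10, and RPL27 and RPL9 did not have it at the annotated start. From 250 bases before to 50 after the start, CCGGAAG was found on either strand in 37.5% of members against 12.2% of all genes, AAGATGG in 10.4% against 7.11%, and TATAAA in 8.33% against 14%. These are matches of letters and do not show that a factor binds. The 34 genes with the pyrimidine start had a median log2 change of 0.18 between miR-20a and miR-NT cells and the 14 without it one of 0.15, and both sets held genes above and below 0.

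The deposited values are log2 levels of probe sets, between 3.45 and 15.07, and come with no detection calls, so which weak probe sets exceed background is unknown, and precision is limited by having 2 arrays per group. On the deposited scale the upper end differed between groups: the 99th percentile over all probe sets was 12.20 and 12.22 with miR-NT and 12.37 and 12.32 with miR-20a, while the median over all probe sets was 7.009 and 6.997 against 6.968 and 6.971. A sign of RNA quality also differed: the 3′ probe set of ACTB exceeded the 5′ one by 0.272 ± 0.105 log2 units with miR-NT and by 0.486 ± 0.042 with miR-20a (SD, n = 2 each), and for GAPDH the excess was 0.222 and 0.275. Both excesses were higher with miR-20a, as the group difference of the strong members was, and their part in it was not tested. From replicate 1 to 2 the ACTB excess went from 0.198 to 0.347 with miR-NT and from 0.515 to 0.456 with miR-20a. The GAPDH excess went from 0.225 to 0.219 and from 0.274 to 0.277. Of 6 glioma cell line markers 5 were below 0, at a median change of -0.24, and 1 passed. The intermediate filament gene VIM was near the top of the scale on all arrays (14.63 to 14.70), and CD44 lay between 12.43 and 12.71. CHI3L1, a secreted glycoprotein of gliomas, fell from 13.49 and 13.51 to 12.44 and 12.32 (limma adjusted p = 0.011). SOX9, FABP7 and NES had mean levels of 7.09, 6.45 and 8.10 and changes of -0.44, -0.26 and -0.21, which did not pass. None of 5 epithelial, 4 blood and 4 endothelial markers passed the test, and their median log2 changes were -0.03, 0.004 and -0.08. In bulk samples fewer cells of a type and less RNA per cell cannot be told apart.

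No ribosomal protein gene passed the test between miR-20a and miR-NT cells, yet those measured by strong probe sets lay slightly higher as a group on the deposited scale. That direction was kept with median centring and was weaker after quantile normalization, with 71.6% of the strong member probe sets above 0 (50.6% of all strong ones). It was lost after cyclic loess normalization (45.9%, against 49.9%). Of 114 probe sets 0 were called in either direction at an adjusted p of 0.05 (limma over all probe sets), where 0.119% of all probe sets were called higher and 0.0167% lower (0.136% in either direction). With 1 probe set per gene, the one with the highest mean, 0 of 56 genes were called, where 0.366% of genes were called higher and 0.0601% lower (0.426% in either direction). The smallest adjusted p was 0.098 among the member probe sets and 0.087 among the genes (limma). The call of 0 depended on the settings of the fit. With features below the 40th percentile of level left out, RPL27, RPL9 and RPS15A were called higher and RPLP2 lower (4 genes, adjusted p between 0.029 and 0.042), and with a spread that follows the level and is robust to outliers RPS24 and RPL31 joined them (6 genes, limma). The first of these settings called 7.41% of 54 members and 11.3% of the 10982 genes tested, the second 10.7% of 56 members and 6.62% of all genes. By probe set, the first called 1 of 100 members (1%, against 1.33% of those tested) and the second 3 of 114 (2.63%, against 2.28%). What moved the counts was not tested. In simulated data with independent noise of the fitted spread, the probe-set fit recovered 0% of changes of 0.2 log2 units and 1% of 0.5 units. Shifts shared by many probe sets were not simulated, so these rates hold for single probe sets and not for a set that moves together.

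At an unadjusted p under 0.05, 23 of the 114 probe sets were higher in miR-20a cells (20.2%, against a background of 9.46% of all probe sets) and 4 were lower (3.51%, against 8.4%). By sign alone, 92 were above 0 (80.7%, against 44.7%) and 22 below (19.3%, against 55.3%). Both miR-20a arrays lay above both miR-NT arrays for 63 probe sets (55.3%, against 21.7% of all) and below them for 9 (7.89%, against 27.2%). Counted by gene, 17 of 56 were higher at an unadjusted p under 0.05 and 1 was lower, where 12.6% and 9.24% of all genes were. By sign, 53 genes were above 0 (94.6%, against 47%) and 3 below (5.36%, against 53%). The groups did not overlap, in the direction higher, for 40 genes (71.4%, background 25.5%) and, in the direction lower, for 1 (background 27%). Most members are strong, and among all genes of at least 10 log2 units 62.9% were higher without overlap, against 76.5% of the 51 members there. At an unadjusted p under 0.05, 39.1% of those genes and 33.3% of those members were higher. By probe set, the shares without overlap were 60.8% and 70.3%. At 13 log2 units and above, such shares were 52.9% of all probe sets and 78.7% of members. The median log2 change was 0.14 over the 114 probe sets, against -0.02 over all probe sets, and 0.16 over the 56 genes, against -0.01 over all genes. The members' medians became 0.03 and 0.09 after quantile normalization and -0.002 and 0.0001 after cyclic loess normalization.

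The spread between arrays of the same group was of the same order as this difference. The median level of the 74 member probe sets with a mean of at least 10 log2 units was 13.03 and 13.15 with miR-NT and 13.23 and 13.28 with miR-20a. Taken probe set by probe set, miR-NT replicate 2 exceeded miR-NT replicate 1 by a median of 0.13, in 70 of 74 probe sets, and miR-20a replicate 2 exceeded miR-20a replicate 1 by 0.08, in 64 of 74. The nearest arrays of the groups, miR-20a replicate 1 and miR-NT replicate 2, differed by a median of 0.06, with 54 of 74 probe sets higher in the former. The members thus moved together from array to array, also within a group, where the median difference over all probe sets was under 0.01 in size (-0.0048 and -0.0043). Without miR-NT replicate 1, the array on which they were lowest, the median change of all 114 probe sets was 0.08.

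**Figure D1:**
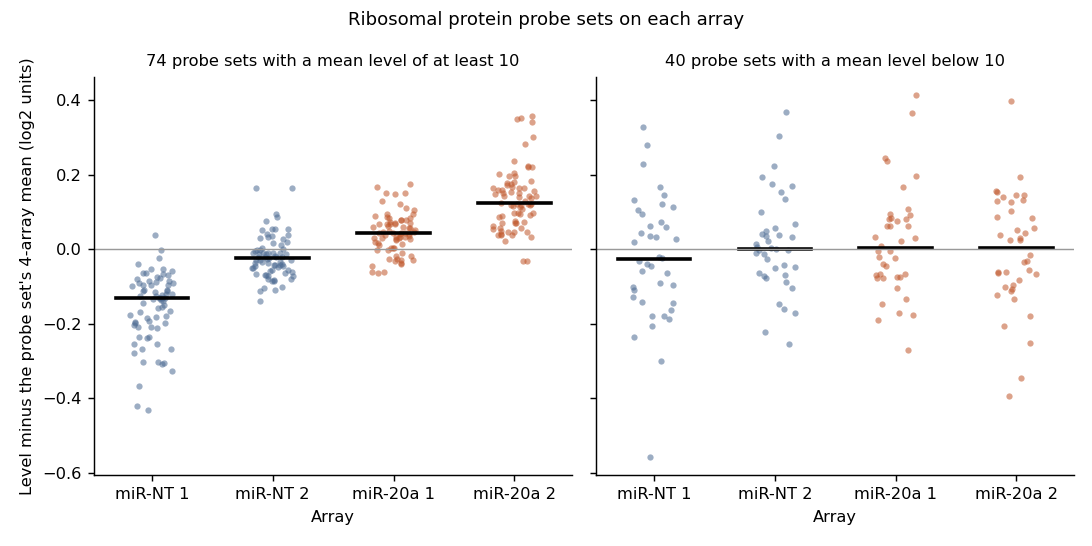
Each point is a ribosomal protein probe set, plotted on each of the 4 arrays as its level minus its own mean over the arrays, in log2 units of the deposited scale; black bars are medians, blue is miR-NT and orange miR-20a. The 74 strong probe sets lie lowest on miR-NT replicate 1 and highest on miR-20a replicate 2, while the 40 weak probe sets are centred near 0 on every array. This is an order of the deposited scale. The median group difference of the strong ones is 0.05 after quantile normalization and -0.005 after cyclic loess.

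The difference followed the level of the probe set. The strong members had a median change of 0.15 and 73 of 74 were above 0, whereas the 40 members below 10 log2 units had a median of -0.004, with 19 above and 21 below 0. All 2682 probe sets of at least 10 log2 units, of whatever gene, had a median change of 0.14, with 74.2% above 0, and of these 34.6% were higher at an unadjusted p under 0.05, against 23% of the strong members. At this cut the median of the strong ribosomal protein probe sets was thus close to that of other strong probe sets. Their changes were more closely packed, with quartiles of 0.10 and 0.24 against -0.01 and 0.29. The strong members lay higher on the scale, however, at a median level of 13.17 against 10.85. At 13 log2 units and above the median was 0.15 for 47 members and 0.08 for all 227 probe sets there, members included. Of these, 25.5% and 11.9% were higher at an unadjusted p under 0.05 (limma). Across the 114 members the change correlated with the mean level (Pearson r = 0.41, Spearman rho = 0.34), and across all probe sets with a rho of 0.22; the points share the 4 arrays, and probe sets of 1 gene are not independent.

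**Figure D2:**
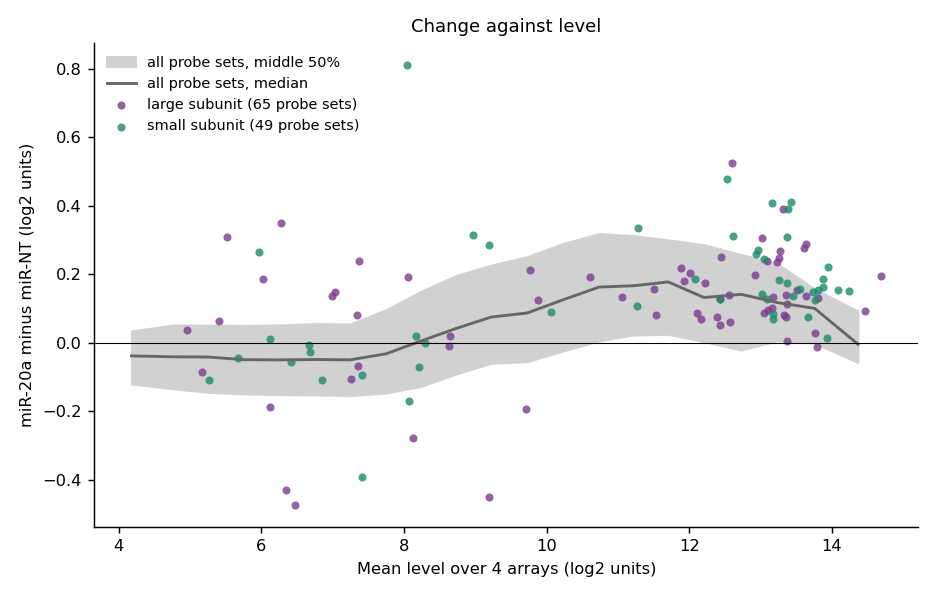
The log2 change between miR-20a and miR-NT arrays (vertical axis, deposited scale) is plotted against the mean level over the 4 arrays (horizontal axis, log2 units) for the 65 large-subunit and 49 small-subunit probe sets, over the median and the middle 50% of all probe sets in steps of level. Most strong members lie above 0. The grey line rises with the level and comes back to 0 at the top, where most members lie above it. At 13 log2 units and above the median is 0.15 for members and 0.08 for all probe sets. The members' median is 0.03 after quantile normalization and -0.002 after cyclic loess normalization.

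Scalings that make the arrays alike along the level reduced this difference, cyclic loess more than quantile normalization. The median change of the strong members was 0.19 with each array centred on its median, 0.05 after quantile normalization and -0.005 after cyclic loess normalization. The same medians over all probe sets of at least 10 log2 units were 0.17, 0.003 and -0.0003. By gene, the 56 members had medians of 0.19, 0.09 and 0.0001 in turn, with 54, 43 and 28 genes above 0. Members of the small subunit had a median change of 0.19 and those of the large subunit one of 0.13 by gene on the deposited scale, 0.12 and 0.03 after quantile normalization, and 0.03 and -0.01 after cyclic loess. That difference between subunits was not tested.

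**Figure D3:**
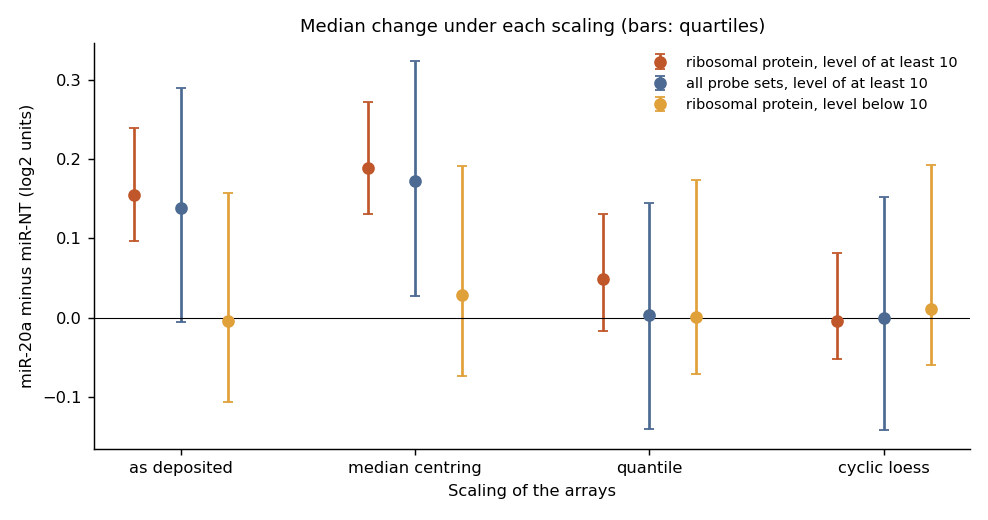
Median log2 change between miR-20a and miR-NT arrays (points) with its quartiles (bars) under 4 scalings of the arrays, for ribosomal protein probe sets of at least 10 log2 units, all probe sets of that level, and weaker ribosomal protein probe sets. The strong members and all strong probe sets stand at 0.15 and 0.14 as deposited and at -0.005 and -0.0003 after cyclic loess.

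Among proteins of the large subunit, RPL9 had the largest positive change. RPL9 binds ribosomal RNA near the base of the stalk. It was measured at 12.18 and 12.50 with miR-NT and at 12.78 and 12.95 with miR-20a, a difference of 0.53 ± 0.13 (SE, limma adjusted p = 0.10). All miR-20a values were above the miR-NT values, but the 2 miR-NT arrays were themselves 0.32 apart. RPL27, another protein of the large subunit, was at 13.03 and 13.19 against 13.48 and 13.53, a difference of 0.39 ± 0.09 (limma adjusted p = 0.099), again without overlap. The differences of RPL9 and RPL27 were 0.37 and 0.23 after cyclic loess.

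RPL39, a very small protein that lines the exit tunnel, was at 13.37 and 13.57 against 13.67 and 13.83. Its groups did not overlap, at a difference of 0.28 (limma adjusted p = 0.20). RPL38, which is known for its part in translating Hox mRNAs in the embryo, was at 12.92 and 13.02 against 13.18 and 13.24 by its strongest probe set. All 3 probe sets of RPL38 were above 0 on the deposited scale, between 0.08 and 0.24. RPL41, the shortest ribosomal protein, had the highest level of all members, 14.56 and 14.61 with miR-NT and 14.79 and 14.78 with miR-20a. That difference of 0.20 did not pass (limma adjusted p = 0.23), and the groups did not overlap. After cyclic loess the differences of RPL39, RPL38 and RPL41 were 0.12, 0.08 and 0.04.

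Other proteins of the large subunit showed less. RPL11, which with RPL5 binds and restrains the p53 ligase MDM2 when ribosome assembly is disturbed, was at 12.92 and 13.08 against 13.07 and 13.10, so that the groups overlapped. RPL22, the member with the most probe sets beside RPL35A, had changes between 0.05 and 0.21 over its 5 probe sets, all above 0 on the deposited scale, while its strongest was at -0.10 after cyclic loess. RPL3, which lies near the peptidyl transferase centre, was at 13.41 and 13.32 against 13.40 and 13.34, a difference of 0.01 ± 0.09, and turned to -0.09 after quantile normalization. RPL32 had a difference of -0.01 ± 0.10. Its values were 13.72 and 13.88 on the miR-NT and 13.75 and 13.83 with miR-20a, the latter lying within the former. RPL36A had 1 member probe set only, a weak one and the lowest of the genes, at 5.06 and 5.36 against 5.14 and 5.10.

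The stalk proteins RPLP1 and RPLP2, acidic proteins that recruit translation factors to the large subunit, had changes of opposite sign by their strongest probe sets on the deposited scale, but after cyclic loess RPLP1 too was below 0, at -0.03. RPLP2 was at 9.34 and 9.49 with miR-NT and at 8.92 and 9.01 with miR-20a. It had the smallest p of all member genes, at a difference of -0.45 ± 0.10 (SE, limma adjusted p = 0.087), with no overlap. The other RPLP2 probe set was weaker, at 6.58 and 6.84 against 6.40 and 6.08, and had a change of -0.47 ± 0.14. Of the genes with several member probe sets, RPLP2 was also the only one with all below 0. Its difference was -0.53 after quantile normalization and -0.52 after cyclic loess. Probe sets that name several genes gave no value for it. RPLP1 was at 13.72 and 13.77 against 13.87 and 13.88, a difference of 0.13 ± 0.08, and its other, weak probe set had a change of -0.19, so that the mean of both was at -0.03. The 2 RPLP2 probe sets lay below 10 log2 units, unlike the strongest probe sets of most members.

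In the small subunit all 21 genes had a positive difference by their strongest probe set on the deposited scale. After quantile normalization 20 did, and after cyclic loess 13 did. RPS15A was at 13.12 and 13.31 with miR-NT against 13.55 and 13.70 with miR-20a, a difference of 0.41 ± 0.11 (SE, limma adjusted p = 0.11). The other 2 probe sets of RPS15A, both weak, had changes of -0.01 and 0.02, and the mean over its probe sets differed by only 0.14. RPS7, which like RPL11 can bind MDM2, was at 12.86 and 13.06 against 13.23 and 13.51 and at 12.09 and 12.48 against 12.65 and 12.88 by its 2 probe sets. Both differences, 0.41 and 0.48, were without overlap (limma adjusted p = 0.20 for each over probe sets). RPS24, one of the genes mutated in Diamond-Blackfan anaemia, was at 13.13 and 13.29 against 13.51 and 13.52, with both of its probe sets above 0 (0.31 and 0.26). After cyclic loess the differences of RPS15A, RPS7 and RPS24 were 0.25, 0.25 and 0.15.

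RPS3, which sits at the entry of the mRNA channel and also acts in DNA repair, was at 12.75 and 12.85 against 13.01 and 13.11, a difference of 0.26 ± 0.09 without overlap (limma adjusted p = 0.17) that was 0.11 after cyclic loess. RPS19, the gene most often mutated in Diamond-Blackfan anaemia, was at 13.65 and 13.75 against 13.76 and 13.88. RPS14, whose loss underlies the anaemia of the 5q- syndrome, was at 13.61 and 13.72 against 13.72 and 13.90, so that the groups overlapped. RPS6, the substrate by which S6 kinase activity is commonly read, had differences of 0.13, 0.13 and 0.14 by its 3 strong probe sets and -0.11 by its weak one. RPS4X, at 13.93 and 13.92 against 13.98 and 13.90, had a difference of 0.01 ± 0.08 and was below 0 after quantile normalization (-0.05) and cyclic loess (-0.15). RPS19, RPS14 and RPS6 were also below 0 after cyclic loess, at -0.03, -0.01 and -0.03.

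The paralogs RPL10L, RPL3L and RPL39L were each measured by a probe set below 10 log2 units, unlike RPS27L by its strongest one. RPL10L, a retrogene active in the testis, was at 7.25 and 7.36 against 7.34 and 7.43. RPL3L, the paralog of heart and skeletal muscle, was at 5.51 and 5.25 against 5.34 and 5.54. RPL39L, another testis paralog that some tumours express, was at 7.933 and 7.997 against 8.123 and 8.191, a difference of 0.19 ± 0.09 without overlap (limma adjusted p = 0.26). Levels of different probe sets are not comparable as amounts of RNA, so these values do not rank the paralogs against their partners.

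RPS27L, a p53-induced paralog of RPS27, held the largest change of any member probe set. That probe set was at 7.48 and 7.78 with miR-NT and at 8.45 and 8.43 with miR-20a, a difference of 0.81 ± 0.12 (SE, limma adjusted p = 0.098 over all probe sets). Both miR-20a arrays were well above both miR-NT arrays, and the difference was 0.82 after cyclic loess. It was called with low features left out (limma adjusted p = 0.037) and with the trend and robust setting (0.024). The strongest probe set of RPS27L was at 12.81 and 13.04 against 13.09 and 13.25, a difference of 0.24 ± 0.11 (limma adjusted p = 0.26 over genes), and 0.09 after cyclic loess. The third, at 9.81 and 10.23 against 10.01 and 10.22, had overlapping groups and a difference of 0.09 ± 0.155, which was -0.03 after cyclic loess. RPS27 itself was at 13.70 and 13.86 against 13.94 and 13.99, and its weak probe set had a change of -0.03.

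**Figure D4:**
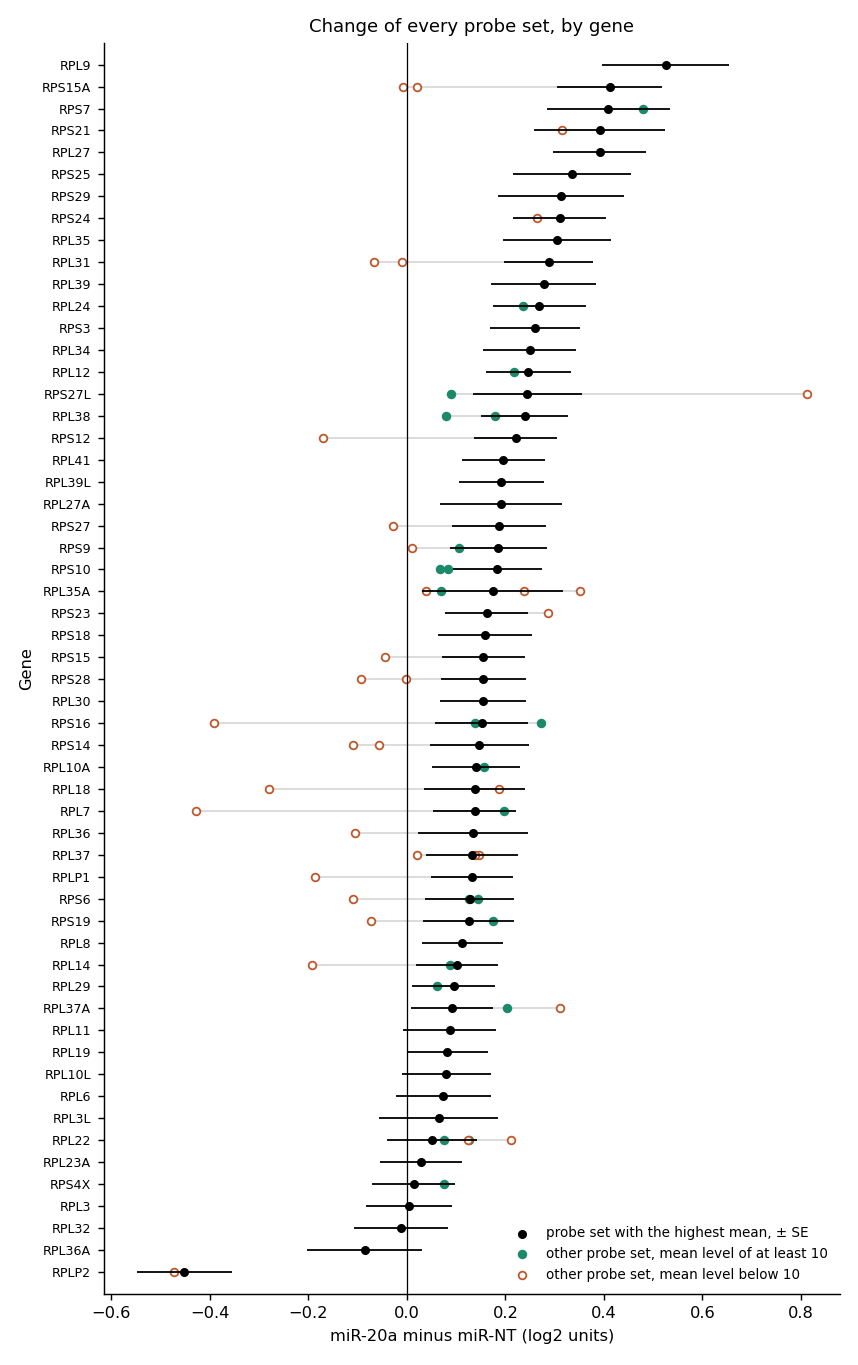
Log2 change between miR-20a and miR-NT arrays (horizontal axis, deposited scale) for every probe set of the 56 genes (rows, sorted by the change of the probe set with the highest mean, black, with its SE); filled green and open orange points are other probe sets above and below a mean of 10 log2 units. By the black points 53 genes are above 0 as deposited, 43 after quantile normalization and 28 after cyclic loess. RPLP2 stands apart at -0.45, and many open points lie to the left of the black point of their gene.

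Probe sets of 1 gene often disagreed. Of the 33 genes with several, 17 had all changes above 0, 1 had all below 0 and 15 were mixed. In the 24 genes with probe sets both of at least 10 and below 10 log2 units, the strong ones had a median change above 0 in all 24 on the deposited scale, and the weak ones in 10. After cyclic loess the strong ones were above 0 in 10 of the 24 and the weak ones in 12. The widest span after RPS27L was that of RPS16, a protein near the decoding site, with changes of 0.15, 0.14 and 0.27 by strong probe sets and -0.39 ± 0.12 by a weak one (7.58 and 7.64 against 7.37 and 7.07). RPL7 had changes of 0.14 and 0.20 by strong probe sets and -0.43 ± 0.11 by a weak one, at 6.67 and 6.44 against 6.16 and 6.09 (limma adjusted p = 0.15 over probe sets). RPL18 had 0.14 by its strong probe set and -0.28 and 0.19 by its weak ones. After cyclic loess the strongest probe sets of RPS16, RPL7 and RPL18 were at -0.0088, -0.02 and -0.01, while the weak ones named with negative changes were at -0.35, -0.37 and -0.28.

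Of the members, 34 probe sets carry names ending in _x_at, by which the manufacturer marks probes that can also match other transcripts, and ribosomal protein genes have many processed pseudogenes. These had a median change of 0.13, and the other 80 had one of 0.14. For such probe sets the signal cannot be assigned to the named gene alone.

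Other parts of the ribosome and its supply were described by gene lists, to be read against all genes, of which, before adjustment, 12.6% had p under 0.05 with a higher level, 9.24% with a lower one, and 47% were above 0. Among genes of at least 10 log2 units 39.1% were higher, 5.75% lower and 75.6% above 0. No test compared the lists with each other or with other genes. The list of other ribosome parts, FAU, which encodes a small-subunit protein fused to a ubiquitin-like one, with the paralogs RPL36AL, RPL22L1, RPL26L1 and RPL7L1, had 5 of 7 genes measured. All 5 were without overlap and above 0 on the deposited scale (25.5% of all genes and 62.9% of those of at least 10 log2 units were so), at a median change of 0.30, while 0 passed (limma) and 3 were higher at an unadjusted p under 0.05. After cyclic loess the median was 0.16, with 4 of 5 above 0. RPL26L1 was at 9.67 and 9.77 against 10.09 and 10.24, a difference of 0.45 ± 0.10 (limma adjusted p = 0.088). RPL36AL was at 10.47 and 10.72 against 10.90 and 11.06, and RPL22L1 at 11.45 and 11.64 against 11.81 and 11.89.

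Mitochondrial ribosomal proteins, nuclear-encoded parts of the separate ribosome of mitochondria, had a median change of 0.17 over 75 genes, at a median level of 9.26. None passed (limma), 26 were higher and 0 lower at p under 0.05 before adjustment, and 67 were above 0 (34.7%, 0% and 89.3%, against 12.6%, 9.24% and 47% of all genes). After cyclic loess their median was 0.09 and 18 were higher at an unadjusted p under 0.05 (24%, against 10.2% of all genes), where the cytosolic proteins had a median of 0.0001 and 3 such genes (5.36%). The genes with the smallest p were MRPL36, MRPL20 and MRPL27, with changes of 0.44 ± 0.09, 0.57 ± 0.12 and 0.44 ± 0.09 (limma adjusted p = 0.082, 0.085 and 0.087), of which MRPL20 had that sign by 1 of 3 probe sets only.

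Of 18 measured TOP mRNAs other than ribosomal proteins, among them elongation and initiation factors, 0 passed (limma), 4 were higher at an unadjusted p under 0.05 (22.2%, against 12.6% of all genes and 39.1% of the strong ones) and 11 were above 0 (61.1%, against 47% and 75.6%). Their median level was 11.87, and their median change was 0.11 on the deposited scale and -0.06 after cyclic loess. PFDN5, a prefoldin subunit, had a change of 0.45, TMA7 0.36 and the elongation factor subunit EEF1D 0.29, the last by 1 of its 4 probe sets only. Of 27 translation initiation factors 0 passed and 26 were above 0, at a median of 0.11 that became 0.01 after cyclic loess, with 4 higher (14.8%, near the 12.6% of all genes) and 0 lower at p under 0.05 before adjustment (limma). Those above 0 were 96.3%, against 47% of all genes, and 15 of 27 after cyclic loess. EIF2B2, part of the exchange factor of eIF2, had a change of 0.39, EIF3M 0.28 and EIF2B5 0.24.

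Genes of ribosome assembly were measured at a median level of 8.90. Of 42 assembly factors 0 passed (limma), 4 were higher and 1 lower at p under 0.05 before adjustment (9.52% and 2.38%, against 12.6% and 9.24% of all genes), at a median of 0.05, which was 0.0045 after cyclic loess and -0.01 after quantile normalization. NOP58, a core protein of the box C/D nucleolar particles, had a change of 0.40, the kinase gene RIOK1 0.32 and RRP1 -0.31, the last by 1 of 2 probe sets. Of 20 genes of RNA polymerase I and its factors, which transcribe ribosomal RNA, 0 passed, 4 were higher and 0 lower at p under 0.05 before adjustment (20%, against 12.6% of all genes; limma), and 14 were above 0 and 6 below at a median of 0.05. After cyclic loess 2 of the 20 were higher at that p (10%, against 10.2% of all genes). On the deposited scale those with the smallest p were POLR2K at 0.38, POLR2H at 0.27 and RRN3 at 0.47. Of 11 small nucleolar RNA host genes 3 were measured alone, and EPB41L4A-AS1, ZFAS1 and GAS5 had changes of 0.19, 0.13 and 0.07.

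Among 15 regulators of mTORC1 and of TOP mRNAs, DEPTOR, an inhibitor of mTOR, was the only gene past the threshold. It rose from 8.87 and 8.78 with miR-NT to 9.64 and 9.54 with miR-20a, a difference of 0.76 ± 0.09 (SE, limma adjusted p = 0.033), with a single probe set and no overlap. The call held under each scaling tried (adjusted p between 0.025 and 0.037, limma) and the difference stayed between 0.71 and 0.81 with any 1 array left out. The adjusted p was 0.25 with the replicate number as a block and 0.34, 0.19 and 0.057 without miR-NT replicate 1, miR-NT replicate 2 and miR-20a replicate 1, fits that called 0, 0, 0 and 42 of all genes. CNBP, a zinc finger protein that binds TOP mRNAs, had a change of 0.42 (limma adjusted p = 0.086) by 2 of 2 probe sets, and RHEB, the activator of mTORC1, 0.18. The list's median was 0.02, with 2 genes higher (13.3%, near the 12.6% of all genes) and 0 lower at p under 0.05 before adjustment. Of 8 genes of MYC, a transcription factor of ribosomal protein genes, and its partners 0 passed. MYC was at 9.315 and 9.378 against 9.013 and 8.996, a difference of -0.34 ± 0.08 without overlap (limma adjusted p = 0.10), MAX had one of 0.39 by 2 of 5 probe sets, and MYCL one of -0.25.

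**Figure D5:**
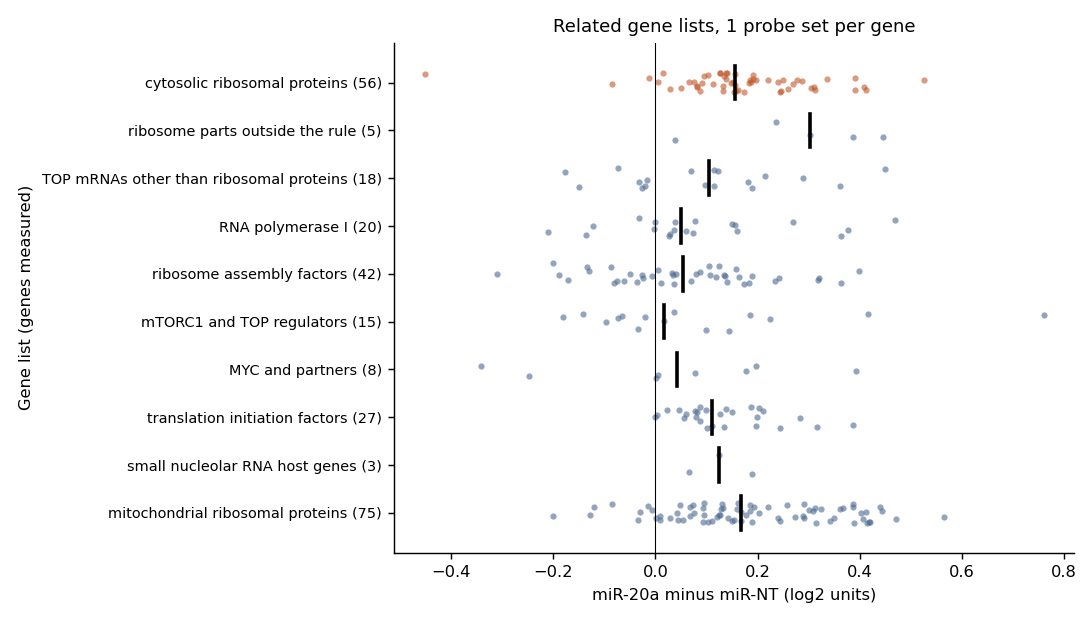
Log2 change between miR-20a and miR-NT arrays (horizontal axis, deposited scale, 1 probe set per gene) for the 56 cytosolic ribosomal protein genes (orange) and the genes of 9 related lists (blue), with list medians as black bars. The medians of cytosolic and mitochondrial ribosomal proteins are 0.16 and 0.17 as deposited and 0.0001 and 0.09 after cyclic loess; DEPTOR is the point at 0.76.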

How the data were processed

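RNA of 4 samples was read on 1 single-colour Affymetrix array each, from 6 µg of total RNA per the labels' protocols. The deposited values are log2 levels per probe set; affy is named in the submitters' processing notes, and how background, normalization and summarization were handled is not stated in labels or headers. Base 2 was inferred from the range of the values. The table held 41930 probe sets, of which 10 array controls were left out; 37465 named a single gene, 1727 several and 2728 none. Symbols were checked by Entrez identifier against RefSeq genes of GRCh38.p14, and 0 changed. Each gene took its probe set of highest mean level.

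The groups were compared in limma 3.58.1 (R 4.3.3) by lmFit with a group term, then eBayes, on all 4 arrays, over 41920 probe sets and separately over 18304 genes, two-sided, with Benjamini-Hochberg adjustment over all features and a threshold of 0.05. With 2 against 2, exact permutation of the labels gives no two-sided p below 0.333. The fit was tested on simulated data (10 simulations of 41920 probe sets with independent noise, 200 changed): 79.2% of changes of 1 log2 unit and 96.4% of 1.5 units were recovered.

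The members and lists were chosen with earlier results of these data known, and the level of 10 log2 units that separates strong from weak probe sets was chosen after seeing the values. By the naming rule a fixed set of 18 member genes was given values whatever they were, with the 5 smallest p in each direction (3 genes were below 0), the 4 widest spans of probe sets, the highest and lowest level, and 3 genes of each list; further genes are named for their place in a count. Alternatives were a replicate block, 3 further scalings, removal of low features (below the 40th percentile), trend and robust eBayes, other thresholds, other choices of probe set, and leaving out each array.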

Additional observations from a re-analysis of the deposited data

Results flagged for a closer look

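The array's own ACTB controls were not part of any gene comparison. Their 3′ signal exceeded the 5′ signal by 0.486 log2 units on average with miR-20a, above the 0.272 found with miR-NT, and both miR-20a values (0.515 and 0.456) lay above both miR-NT values (0.198 and 0.347). A further 64 probe sets name a ribosomal protein gene together with other genes and were left out of the members. Their median log2 change was 0.1145 on the deposited scale, with 44 of 64 above 0, 0.0134 after quantile normalization and -0.022 after cyclic loess. No gene was assigned to them. With 2 arrays a group, no search for outlying samples was made.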

How the results depend on the processing

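No ribosomal protein probe set or gene was called on the deposited scale, after quantile normalization, cyclic loess or median centring, or with other choices of probe set. These fits called only 0.426% to 0.836% of all genes and 0.124% to 0.186% of all probe sets, so 0 called members says little about them. Their count was also 0 at a threshold of 0.01 and without either miR-NT array (0 to 0 over all arrays left out), where at most 2 of all genes and 0 of all probe sets were called, which says nothing about the members. Leaving out low features called 1 probe set and 4 genes, trend and robust eBayes 3 and 6, and a threshold of 0.1 called 1 and 2. As shares, members and all tested features had 1% and 1.33%, 2.63% and 2.28%, and 0.877% and 0.379% of probe sets, and 7.41% and 11.3%, 10.7% and 6.62%, and 3.57% and 4.94% of genes. The related lists, with 1 gene called, then held 20, 21 and 13 (9.8%, 9.86% and 6.1%), and 0 at a threshold of 0.01. The median change was 0.034 over probe sets and 0.093 over genes after quantile normalization, and -0.002 and 0.0001 after cyclic loess. Cyclic loess aligns the arrays along the level by construction, but not closely at the top. The 68 probe sets of the highest step of level had a median change of -0.0043 as deposited. Of the members there, RPS15 went from 0.1555 to -0.0054 and RPS16 from 0.1523 to -0.0088. RPL37A went from 0.0918 to -0.0691 and RPL41 from 0.1961 to 0.0357. How far the fit itself turned signs there was not tested. With 1 array left out the medians lay between 0.0829 and 0.1791 (probe sets) and 0.1078 and 0.2094 (genes), and the related lists held 0 to 1 called gene. The groups share replicate numbers 1 and 2, but nothing says that a number marks a shared culture, and the same-numbered arrays' deviations correlated at -0.121 over all probe sets and 0.22 over members. With the replicate number as a block, 0 probe sets and 0 genes of all features were called, DEPTOR included (adjusted p = 0.25, limma), so the related lists held 0. The crossed pairing, added after seeing the data, also called 0. Signs turned for single genes as follows, and the cause was not tested. After quantile normalization RPL11 was at -0.0194, RPL22 -0.094, RPL3 -0.0933, RPS4X -0.0546 and ZFAS1 -0.0257. After cyclic loess RPL11 was at -0.0691, RPL18 -0.0133, RPL22 -0.0994, RPL3 -0.1531, RPL7 -0.0217, RPLP1 -0.0284, RPS14 -0.0125, RPS16 -0.0088, RPS19 -0.034, RPS4X -0.1468, RPS6 -0.0288 and ZFAS1 -0.0215. Median centring put RPL32 at 0.0213. The mean of a gene's probe sets put RPL7 at -0.0311, RPLP1 at -0.0277 and RPS14 at -0.0066. Without probe sets ending in _x_at, EEF1D was at -0.0061, RPL7 at -0.43 and ZFAS1 at -0.0089. With 1 array left out GAS5 ranged from -0.0061 to 0.14, RPL22 from -0.0144 to 0.12, RPL3 from -0.0365 to 0.0466, RPL32 from -0.0942 to 0.0698, RPL36A from -0.2374 to 0.0659, RPL3L from -0.0636 to 0.1936 and RPS4X from -0.0244 to 0.0521. Signal over background is unknown without detection calls, which limits the 40 weak probe sets most.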
